A study of Mus musculus with 6 samples.

Results

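The 43 genes described here encode the machinery that copies DNA in S phase, from the proteins that mark and license origins to the polymerases, the sliding clamp and the enzymes that make deoxynucleotides. They were taken by gene symbol from a list of replication genes, drawn up when earlier results of these data were known, and all 43 were found among the 24054 genes of the deposited table of TPM, a level scaled to transcript length and library. RNA had been sequenced from c-Kit+ splenocytes of 6 mice, 1 library per mouse, with c-Kit (CD117), a receptor of blood stem and progenitor cells, as the handle for magnetic selection. The study asks which transcripts change with loss of Dnmt3a, a DNA methyltransferase, in mice with an activated Flt3 receptor.

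The AML group (acute myeloid leukaemia) held 3 mice of the genotype Flt3ITD/ITD, Dnmt3afl/- MxCre, with 1 floxed and 1 null allele of Dnmt3a and a Cre recombinase under the interferon-inducible Mx promoter, which acts in blood cells and in other tissues. The MPN group (myeloproliferative neoplasm) held 3 control mice of the genotype Flt3ITD/ITD, Dnmt3afl/fl, with both Dnmt3a alleles floxed and no Cre in their titles. Both groups carried the Flt3 internal tandem duplication (ITD) on both alleles, and wild-type cells were not among the samples used. The labels give neither age nor sex, and they do not say whether the floxed allele had been removed. Genotype, Cre and disease cannot be told apart in this comparison. The protocol calls mice of the AML genotype moribund, in wording that does not say whether the controls were. Mice were numbered 1 to 3 within each group only to name them.

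Replication is prepared in G1 phase, when the origin recognition complex, Cdc6 and Cdt1 load the ring-shaped MCM2-7 helicase onto DNA. In S phase Cdc45 and the GINS complex join the ring and activate it, polymerase alpha-primase starts new strands, and polymerases delta and epsilon extend them on the Pcna clamp. Transcription of many of these genes is switched on by E2F factors at the entry into S phase, and their mRNA marks dividing cells, among them blood progenitors.

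The promoters of 4 members are printed as examples, with letters of E2F recognition sequences marked. They are those of Mcm6 and Pold2, which had the 2 largest fold changes, Mcm3, and Cdc6, which had the lowest. Each line holds 250 bases before and 50 bases after a start site of the gene in RefSeq on GRCm38.p6, written 5′ to 3′ on the gene's strand. Capitals mark TTGGCGC or TTCGCGC or TTCCCGC, each 7 letters long, on either strand, and matches that overlap run together. The Mcm6 window lies at chr1:128359656-128359955 on the minus strand and holds 5 matches. The Mcm3 window lies at chr1:20820263-20820562 on the minus strand and holds 3. The Pold2 window lies at chr11:5878207-5878506 on the minus strand and holds 0. The Cdc6 window lies at chr11:98907901-98908200 on the plus strand and holds 1. The RefSeq start in the Cdc6 window lies 350 bases downstream of the start of the gene in GENCODE M21, so the window covers no sequence before that start, while for the other windows shown both starts lie within 41 bases.
Mcm6: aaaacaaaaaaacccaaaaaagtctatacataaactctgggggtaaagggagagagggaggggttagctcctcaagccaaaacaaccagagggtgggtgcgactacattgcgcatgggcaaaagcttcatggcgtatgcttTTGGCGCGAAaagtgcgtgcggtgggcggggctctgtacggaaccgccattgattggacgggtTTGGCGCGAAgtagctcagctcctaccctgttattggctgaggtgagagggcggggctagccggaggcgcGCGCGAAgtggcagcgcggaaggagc
Mcm3: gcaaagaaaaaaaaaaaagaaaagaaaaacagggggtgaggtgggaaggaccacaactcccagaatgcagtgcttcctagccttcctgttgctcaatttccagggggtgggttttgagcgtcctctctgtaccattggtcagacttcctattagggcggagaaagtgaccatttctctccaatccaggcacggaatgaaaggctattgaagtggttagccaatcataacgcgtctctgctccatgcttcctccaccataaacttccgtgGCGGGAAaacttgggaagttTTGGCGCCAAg
Pold2: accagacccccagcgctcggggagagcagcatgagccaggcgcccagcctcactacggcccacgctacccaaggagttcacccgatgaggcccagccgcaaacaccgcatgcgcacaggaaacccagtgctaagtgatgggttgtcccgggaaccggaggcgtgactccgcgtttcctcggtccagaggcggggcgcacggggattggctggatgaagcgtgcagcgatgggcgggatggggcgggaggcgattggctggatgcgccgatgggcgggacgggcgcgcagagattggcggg
Cdc6: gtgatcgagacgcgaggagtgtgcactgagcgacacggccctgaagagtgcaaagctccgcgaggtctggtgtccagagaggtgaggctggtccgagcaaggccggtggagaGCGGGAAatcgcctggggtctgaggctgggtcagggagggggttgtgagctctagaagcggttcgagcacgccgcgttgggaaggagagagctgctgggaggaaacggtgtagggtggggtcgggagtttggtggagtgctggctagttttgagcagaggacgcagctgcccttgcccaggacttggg

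Of the 43 genes, 36 matched an entry of the promoter table by symbol, and 23 of these (63.9%) held at least 1 of the 3 letter runs in a promoter. Among all tested genes with a promoter in the table the share was 16.9% (1559 of 9224). Counted by promoter it was 56.8% (25 of 44) for the replication genes and 14.3% (1670 of 11706) for tested genes. Of the 7 genes called higher in AML that had a promoter entry 5 held the letters, as did 18 of the 29 that were not called. A match is a description of the sequence and not a binding site.

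The libraries differed in ways that may bear on the values. Relative depth was 1.29, 1.0 and 0.739 in AML mice 1 to 3, and 1.04, 0.986 and 0.936 in MPN mice 1 to 3. The 20 most abundant genes made up 8.47% to 12.2% of all TPM in AML and 16.1% to 17.9% in MPN. Dnmt3a stood at 11.5 to 13.5 TPM in AML and 29.3 to 33.9 TPM in MPN, the direction the labels imply. AML mice 1 and 2 had 186 and 194 TPM of Xist, where the other mice had 0.06 TPM or less. Ddx3y, which is Y-linked, was at 0.01 TPM or less in AML mice 1 and 2 and ranged over 27.1 to 48.5 TPM elsewhere. Females therefore occurred in the AML group only. MPN mouse 1 came from another sequencing run than the other 5. Kit, the selection marker, was present in every mouse and averaged 119 ± 17.3 TPM in AML mice and 147 ± 4.17 TPM in MPN mice (SD, n = 3 each). Every AML mouse lay below every MPN mouse for Kit, as for 16.1% of all tested genes. Its log2 fold change was -0.31, with an adjusted p of 0.103 in limma.

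All 43 replication genes were expressed at 1 TPM or more in every mouse, between 5.69 TPM for Orc1 in MPN mouse 3 and 547 TPM for Pcna in AML mouse 1. Most of their fold changes were positive and small. The test called 10 of them higher in AML, which is 23.3% against 20.1% of all 12223 genes tested, and 0 lower, against 10.0% of all genes (limma on log2(TPM + 1), adjusted p under 0.05 over all tested genes). The share of higher calls was near that of all genes, and the other 33 genes did not pass. At an unadjusted p under 0.05 the counts were 16 higher (37.2%) and 0 lower, against 28.8% and 14.8% of all genes. In bulk samples, fewer cells of a type and less RNA per cell cannot be told apart.

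The fold changes were small and narrowly spread. Their median was 0.27 on the log2(TPM + 1) scale, against 0.13 for all tested genes, with 33 of the 43 above that all-gene median. They ran from -0.35 for Cdc6 to 0.82 for Pold2, so that 0 of the 43 reached a 2-fold difference, while 15.2% of all tested genes did. For 17 of the 43 (39.5%) every AML mouse lay above every MPN mouse, against 34.8% of all genes, and for 0 the reverse held, against 16.1%. Fold changes were positive for 38 of the 43 genes, against 61.4% of all tested genes. They were negative for Cdc6, Gins3, Rrm2, Tyms and Pold3. When each library was centred on the median log ratio to the gene means, the median of all genes moved to -0.01 and that of the replication genes to 0.13, and 4 were called higher, against 15.3% of all genes, and 0 lower, against 14.0%.

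**Figure D1:**
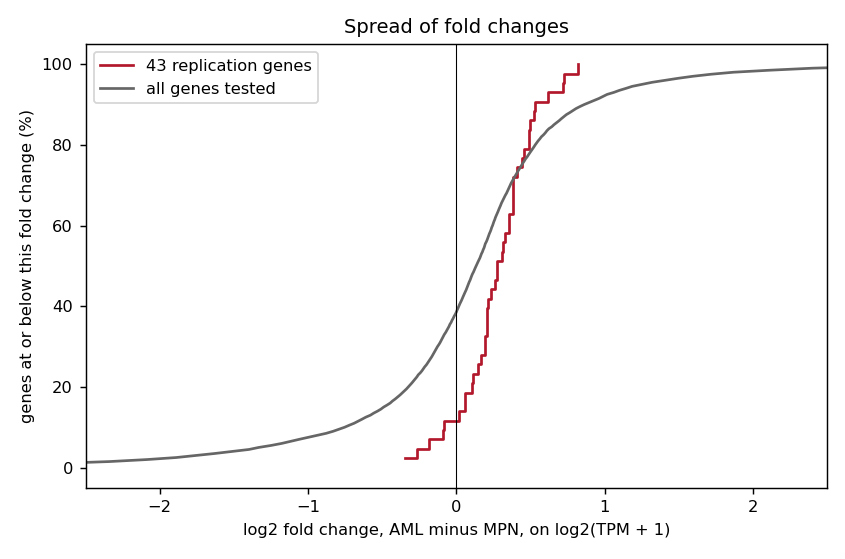
Cumulative share of genes (percent) against the log2 fold change of AML minus MPN, for the 43 replication genes and for all 12223 tested genes. The replication genes lie between -0.35 and 0.82, and their curve is steeper than that of all genes.

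**Figure D2:**
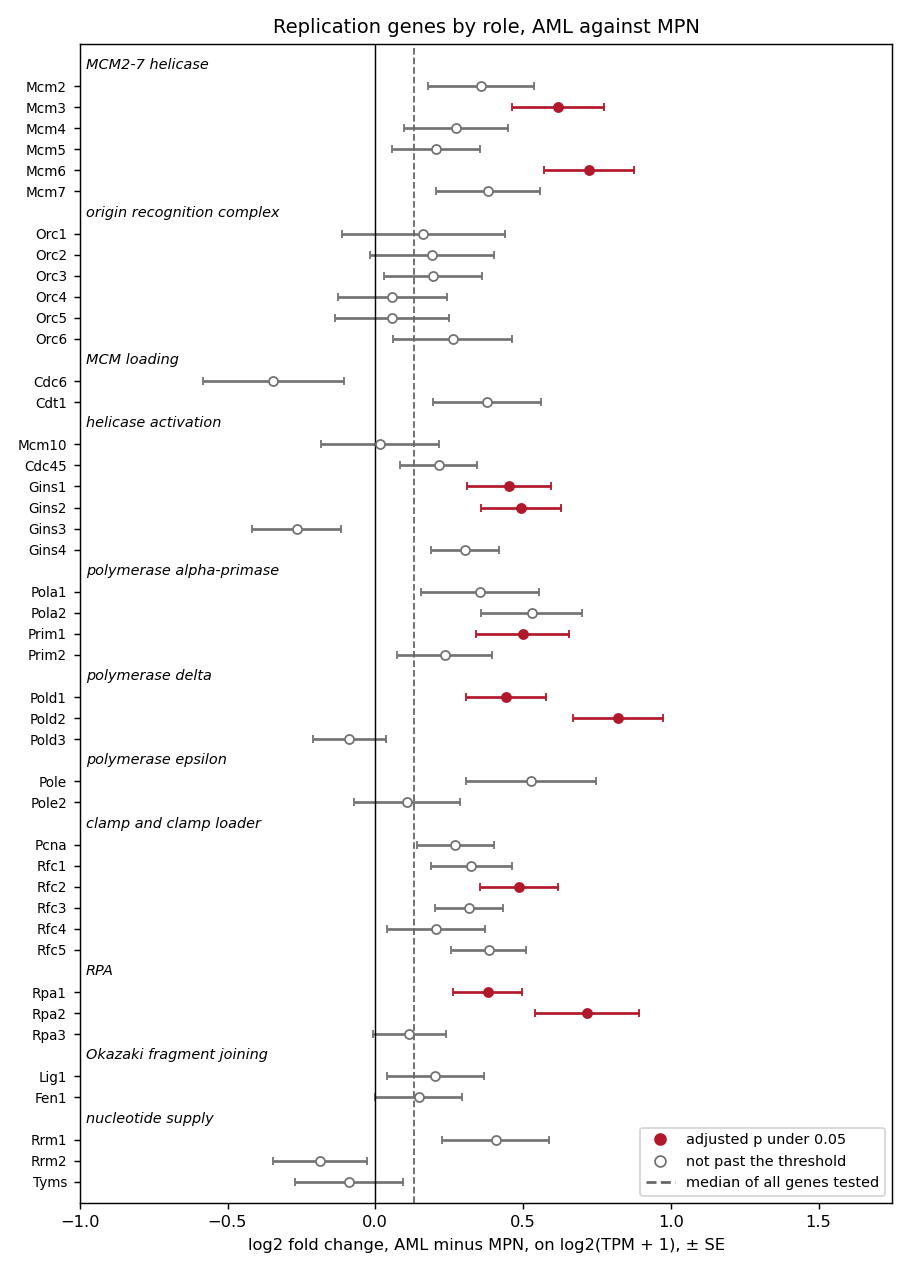
Log2 fold change of AML minus MPN on log2(TPM + 1) with its SE for each replication gene, grouped by role, with 3 mice per group. Filled points are the 10 genes with an adjusted p under 0.05, and the dashed line is the median of all tested genes, 0.13.

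MCM2-7, the 6-part ring that unwinds DNA, had the highest summed level of the roles in both groups and 2 of its 6 genes called. Mcm6 had 373, 345 and 284 TPM in AML mice 1 to 3, against 215, 221 and 169 TPM in MPN mice 1 to 3. The lowest AML mouse was above the highest MPN mouse. Mcm6 averaged 334 ± 45.4 TPM in AML, against 202 ± 28.8 TPM in MPN (SD, n = 3 each), a log2 fold change of 0.72 ± 0.15 (SE) with an adjusted p of 0.0123. Mcm3 had 261, 230.4 and 187 TPM in the AML mice, against 154, 159 and 126 TPM in the MPN mice, with 0.62 ± 0.16 (SE) and an adjusted p of 0.0228. Its groups did not overlap either. For the other ring subunits, Mcm2, Mcm4, Mcm5 and Mcm7, the groups overlapped and the log2 fold changes were 0.36, 0.27, 0.20 and 0.38, with adjusted p of 0.135 or more. The summed MCM2-7 level was 1426, 1319 and 1051 TPM in AML, against 996, 993 and 757 TPM in MPN.

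The 6 subunits form 1 ring, and a ratio between their genes within a mouse removes only a factor that multiplies both genes alike. An influence to which the genes respond to different degrees still changes the ratio, and such influences were not tested. In all, 23 ratios between replication genes were formed, here and below. They were picked after the values had been seen, many of them between genes whose fold changes differ, and are given without a test. By TPM the groups did not overlap in 17 and overlapped in 6, with no share over ratios of other gene pairs to set beside these counts. Mcm6 over Mcm5 was 2.10, 1.93 and 2.03 in the AML mice, against 1.39, 1.44 and 1.39 in the MPN mice. Mcm3 over Mcm5 was 1.47, 1.29 and 1.34 in AML and 0.998, 1.03 and 1.04 in MPN. AML mouse 3, whose Mcm levels were the lowest of the AML group, had both of these ratios within the range of the other AML mice. Mcm7 over Mcm5 was 1.49 to 1.72 in AML and 1.37 to 1.42 in MPN, and Mcm4 over Mcm5 overlapped, at 0.748 to 0.760 in AML and 0.665 to 0.752 in MPN. In the RPKM table Mcm6 over Mcm5 was 1.97 to 2.11 in AML and 1.42 to 1.47 in MPN. Mcm3 over Mcm5 was 0.860 to 0.949 in AML and 0.657 to 0.693 in MPN there. Why the absolute level of this second ratio differed between TPM and RPKM was not tested.

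**Figure D3:**
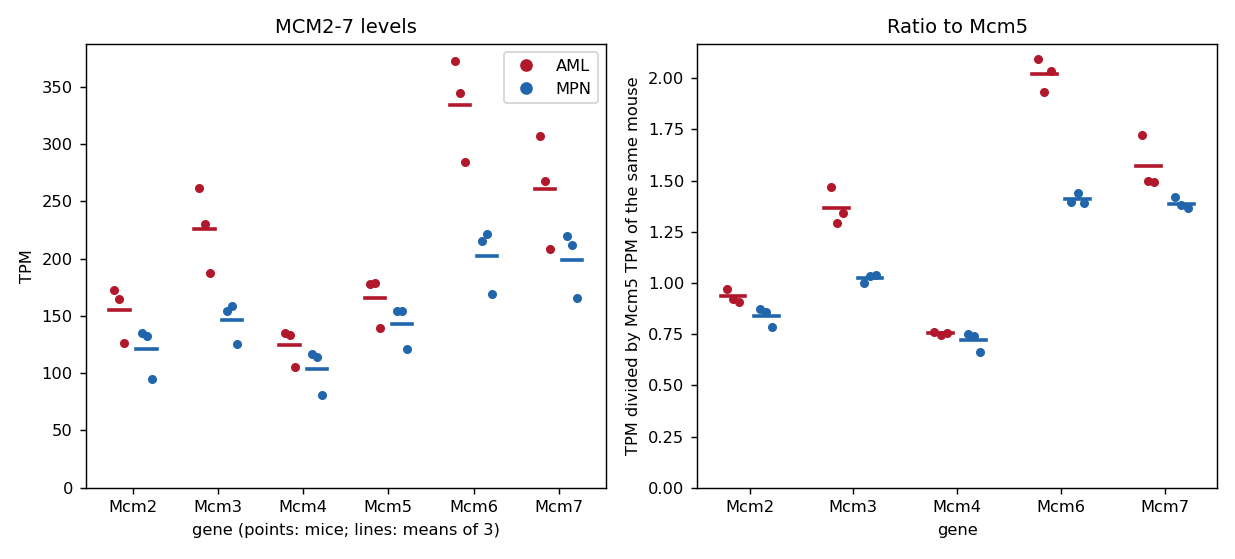
TPM of the MCM2-7 genes (left) and their TPM divided by that of Mcm5 in the same mouse (right), with points for mice and lines for the means of 3 AML or 3 MPN mice. Mcm6 over Mcm5 lies at 1.93 to 2.10 in AML and 1.39 to 1.44 in MPN, while the Mcm4 ratios overlap.

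The origin recognition complex, which marks the sites where replication starts, did not pass for any of its 6 genes. The groups overlapped for all 6 genes, with log2 fold changes from 0.06 for Orc5 to 0.26 for Orc6 and adjusted p of 0.351 or more. Orc1, its largest subunit and the lowest of all 43 genes by the mean of either group, had 12.3, 10.1 and 7.59 TPM in the AML mice, against 11.4, 9.95 and 5.69 TPM in the MPN mice. Orc6 was the highest of the complex and averaged 50.3 ± 10.2 TPM in AML mice and 41.9 ± 8.54 TPM in MPN mice (SD, n = 3 each).

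The loading factors Cdc6 and Cdt1 differed in direction, and neither passed. Cdc6, the ATPase that brings the MCM ring to the origin, had 21.2, 24.9 and 16.6 TPM in the AML mice, against 32.2, 30.5 and 18.8 TPM in the MPN mice. MPN mouse 3 lay among the AML mice, and the log2 fold change of -0.35 ± 0.24 (SE) had an adjusted p of 0.301. Cdt1, which escorts MCM2-7 to the origin, had 107, 87.7 and 70.5 TPM in AML, against 72.6, 73.8 and 55.4 TPM in MPN, with 0.38 ± 0.18 (SE) and an adjusted p of 0.153. Within a mouse, Cdc6 over Cdt1 was 0.199, 0.284 and 0.236 in AML and 0.444, 0.413 and 0.340 in MPN.

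Among the factors that activate the helicase, Gins1 and Gins2, 2 of the 4 GINS subunits, were called higher. Gins2 had 52.7, 59.3 and 45.5 TPM in AML, against 36.0, 40.2 and 34.5 TPM in MPN, with 0.49 ± 0.14 (SE) and an adjusted p of 0.0320. Gins1 had 43.7, 44.0 and 37.4 TPM in AML, against 34.4, 30.5 and 26.1 TPM in MPN, with 0.45 ± 0.14 (SE) and an adjusted p of 0.0498, the closest to the threshold of all called members. In both genes no MPN mouse reached the lowest AML mouse. Gins4 also separated the groups, at 0.30, but did not pass (adjusted p = 0.0847). Gins3, the remaining subunit, had 10.0, 12.4 and 10.4 TPM in AML, against 13.8, 13.8 and 12.3 TPM in MPN, with -0.27 ± 0.15 (SE) and an adjusted p of 0.214. Only AML mouse 2 and MPN mouse 3 overlapped there, by a small margin. Gins2 over Gins3 was 5.27, 4.78 and 4.39 in AML and 2.61, 2.91 and 2.81 in MPN. Cdc45, the partner of GINS in the active helicase, had 52.9, 51.5 and 45.3 TPM in AML mice, against 45.3, 46.3 and 37.5 TPM in MPN mice, with an adjusted p of 0.245. Mcm10, a firing factor, averaged 28.8 ± 3.87 TPM in AML mice and 28.8 ± 6.76 TPM in MPN mice, with an adjusted p of 0.960 (SD, n = 3 each).

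Polymerase alpha-primase lays down the primers of both strands. Its small primase subunit Prim1 had 76.3, 65.6 and 60.2 TPM in AML, against 53.2, 50.9 and 38.7 TPM in MPN, with 0.50 ± 0.16 (SE) and an adjusted p of 0.0495. Pola2, the regulatory subunit, had a larger difference, 0.53 ± 0.17 (SE), and lay just outside the threshold (adjusted p = 0.0518), with groups that did not overlap. Pola1, the catalytic subunit, and Prim2, the large primase subunit, stood at 0.36 and 0.24 with overlapping groups. Prim1 over Prim2 was 1.73, 1.72 and 1.79 in AML and 1.5, 1.43 and 1.42 in MPN.

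Polymerase delta, the main polymerase of the lagging strand, held the largest difference. Pold2, its accessory subunit that binds the catalytic one, had 111, 90.1 and 78.2 TPM in the AML mice, against 53.2, 56.0 and 46.4 TPM in the MPN mice. Every AML mouse was above every MPN mouse, with AML mouse 1 the highest. Pold2 averaged 93.0 ± 16.5 TPM in AML, against 51.8 ± 4.97 TPM in MPN (SD, n = 3 each), a log2 fold change of 0.82 ± 0.15 (SE) with an adjusted p of 0.00776. Pold1, the catalytic subunit, had 77.9, 75.3 and 65.5 TPM in AML, against 56.8, 58.1 and 45.7 TPM in MPN, with 0.44 ± 0.14 (SE) and an adjusted p of 0.0444. Pold3, another accessory subunit, had 42.99, 49.0 and 38.6 TPM in AML, against 48.3, 45.7 and 44.3 TPM in MPN, which overlapped (adjusted p = 0.618). Pold2 over Pold3 was 2.58, 1.84 and 2.03 in AML and 1.10, 1.23 and 1.05 in MPN.

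Polymerase epsilon, which copies the leading strand, did not pass. Its catalytic subunit Pole had 39.9, 31.2 and 25.7 TPM in AML, against 25.3, 24.5 and 16.6 TPM in MPN. The groups did not overlap, the spread was wide, and 0.53 ± 0.22 (SE) had an adjusted p of 0.108. Pole2, its second subunit, stood at 0.11 (adjusted p = 0.671).

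Pcna, the sliding clamp, was the highest of the 43 genes in each mouse. It had 547, 499 and 454 TPM in the AML mice, against 420.5, 463 and 363 TPM in the MPN mice, with overlap between AML mouse 3 and MPN mouse 2, and did not pass (0.27 ± 0.13 SE, adjusted p = 0.149). Of the clamp loader genes Rfc1 to Rfc5, Rfc2 was called, with 148, 186 and 146 TPM in AML mice, against 116, 121 and 103 TPM in MPN (0.49 ± 0.13 SE, adjusted p = 0.0292). In this gene AML mouse 2 was the highest, and the groups were apart. Rfc1, Rfc3 and Rfc5 also had groups that did not overlap, at 0.32, 0.32 and 0.38, and did not pass (adjusted p of 0.0580 to 0.109), and Rfc4 overlapped at 0.21.

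RPA coats the single strands that the helicase exposes. Rpa2, its middle subunit, had 127, 88.0 and 84.9 TPM in AML, against 64.1, 62.5 and 52.6 TPM in MPN, with 0.72 ± 0.18 (SE) and an adjusted p of 0.0214. AML mouse 1 stood well above the other AML mice, which were both above all MPN mice. Rpa1, the large subunit, had 128, 120.4 and 107 TPM in AML, against 92.2, 97.5 and 82.1 TPM in MPN, with 0.38 ± 0.12 (SE) and an adjusted p of 0.0458. Rpa3, the small subunit, had 72.5, 84.1 and 74.0 TPM in AML, against 65.4, 80.4 and 67.5 TPM in MPN, which overlapped (adjusted p = 0.504). Rpa2 over Rpa3 was 1.76, 1.05 and 1.15 in AML and 0.979, 0.777 and 0.779 in MPN, a narrow gap with AML mouse 1 well above the rest.

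Fen1, the flap nuclease, and Lig1, the ligase, process and join Okazaki fragments. Neither passed, at 0.15 and 0.20 with overlapping groups. In nucleotide supply, Rrm1 and Rrm2 form ribonucleotide reductase, the enzyme that makes deoxynucleotides. Rrm1, the large subunit, had 209, 145 and 131 TPM in AML, against 128, 123 and 107 TPM in MPN, without overlap and without passing (0.41 ± 0.18 SE, adjusted p = 0.125). Rrm2, the subunit whose level follows the cell cycle, had 129.6, 146 and 113 TPM in AML, against 164, 160.4 and 119.9 TPM in MPN (-0.19 ± 0.16 SE, adjusted p = 0.393). MPN mouse 3 again lay among the AML mice. Rrm2 over Rrm1 was 0.622, 1.01 and 0.857 in AML and 1.28, 1.31 and 1.12 in MPN, without overlap. Tyms, thymidylate synthase, had 46.3, 48.3 and 46.8 TPM in AML, against 62.0, 54.1 and 37.6 TPM in MPN, with all AML mice inside the MPN range (adjusted p = 0.737).

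The ratios that overlapped outside MCM2-7 were Orc6 over Orc1, at 4.67 to 5.54 in AML and 4.03 to 5.64 in MPN, and Pola2 over Pola1, at 1.72 to 2.98 in AML and 1.754 to 2.15 in MPN. So did Pole over Pole2, at 0.938 to 1.41 in AML and 0.756 to 0.948 in MPN. By RPKM the groups did not overlap for Pole over Pole2, at 0.522 to 0.773 in AML and 0.428 to 0.518 in MPN. By TPM, Rfc2 over Rfc4 was 2.27 to 3.33 in AML and 2.10 to 2.57 in MPN. Lig1 over Fen1 was 0.888 to 0.983 in AML and 0.831 to 0.991 in MPN.

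**Figure D4:**
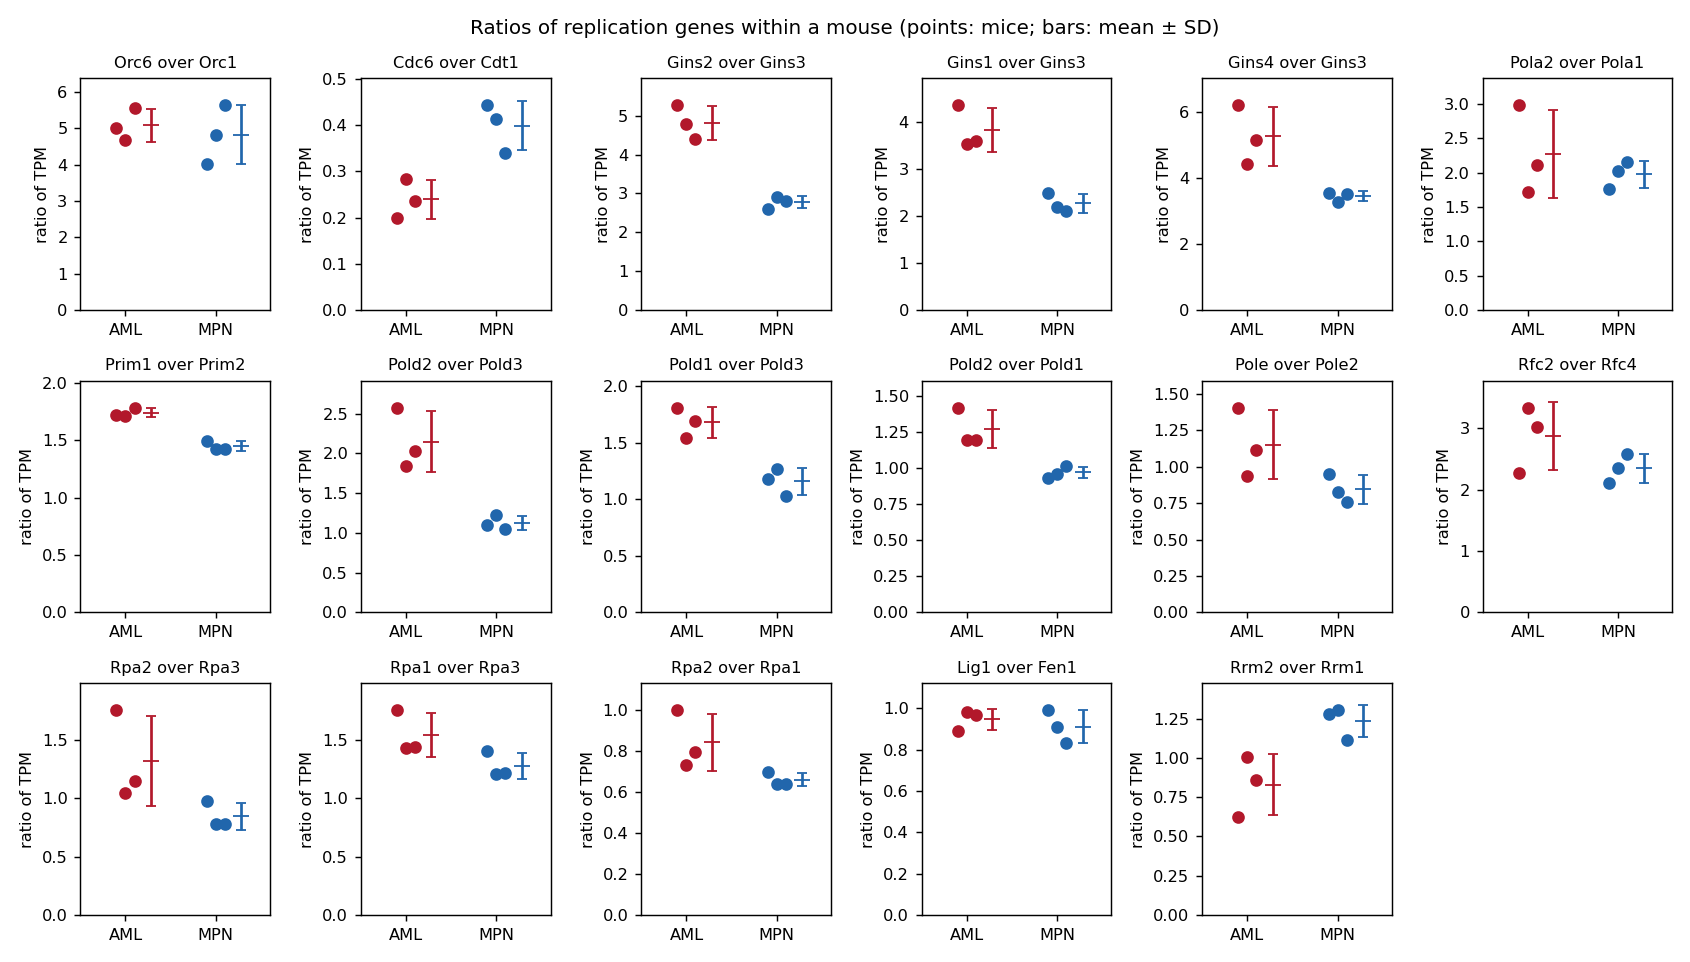
Ratio of TPM of 2 replication genes within a mouse for the 17 ratios outside MCM2-7, with points for 3 AML and 3 MPN mice and bars for mean ± SD. The groups overlap in 5 panels, and Gins2 over Gins3 lies at 4.39 to 5.27 in AML and 2.61 to 2.91 in MPN.

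The mice of a group differed among themselves. MPN mouse 3 was the lowest of the 6 for 38 of the 43 replication genes (88.4%), against 43.5% of all tested genes. AML mouse 1 was the highest of the 6 for 28 (65.1%), against 39.7% of all genes, and AML mouse 3 was the lowest of its group for 36 (83.7%), against 40.5%. Relative to the mean of the MPN mice, the median member stood at 0.42, 0.32 and 0.08 on the log2(TPM + 1) scale in AML mice 1 to 3, and at 0.12, 0.12 and -0.25 in MPN mice 1 to 3. For all tested genes the same medians were 0.20, 0.13 and 0.10 in AML mice 1 to 3, against 0.09, 0.03 and -0.11 in MPN mice 1 to 3. AML mouse 3 was below both MPN mouse 1 and MPN mouse 2 for 21 of the 43 genes. No share over all genes is at hand to set beside this count. The order of the AML mice was also that of their depth, whose part was not tested.

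**Figure D5:**
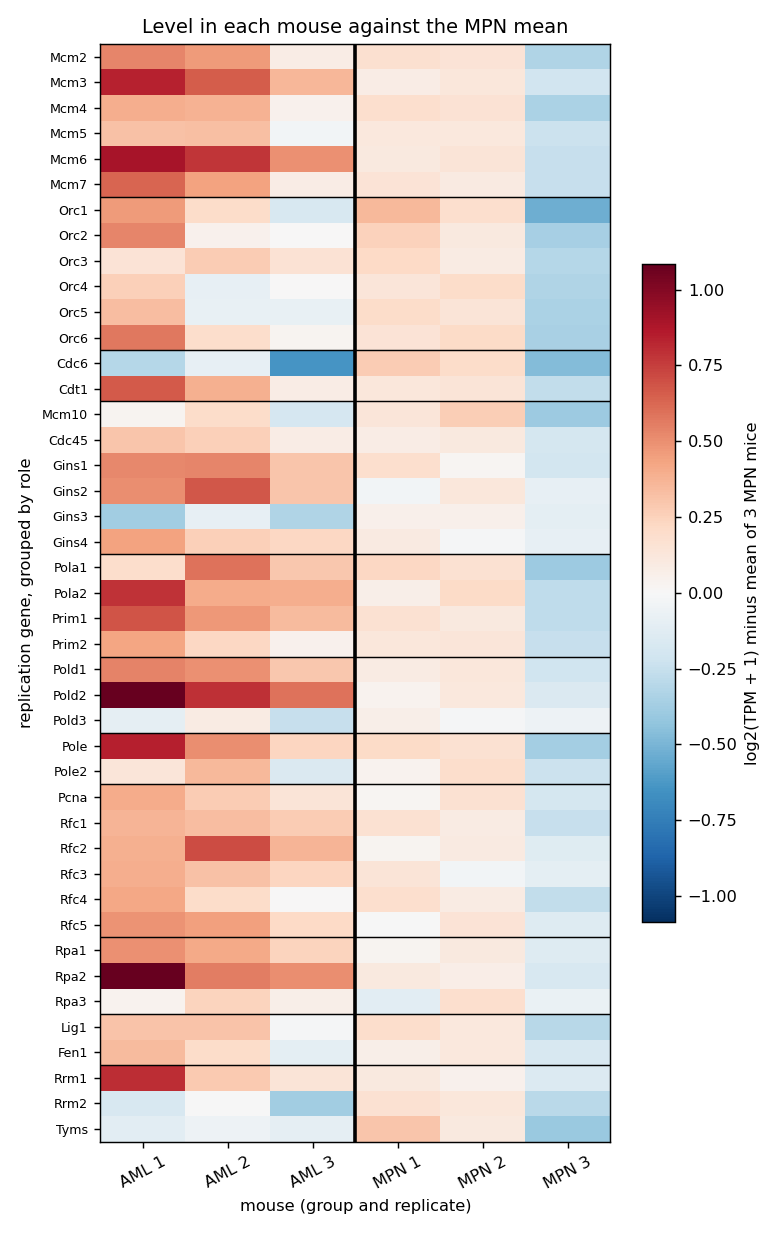
Level of each replication gene in each mouse as log2(TPM + 1) minus the mean of the 3 MPN mice, with genes in rows grouped by role and mice in columns. The column of MPN mouse 3 is blue almost throughout, AML mouse 3 is pale, and Pold2, Mcm6, Rpa2 and Mcm3 are red in all 3 AML mice.

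The number of called genes depended on which mice were used. In most of the 16 alternatives the share of the 43 genes called higher was below that of all tested genes. Without AML mouse 1, 2 or 3 the number called was 5, 3 or 12 of the 43, against 16.5%, 15.7% and 18.8% of all tested genes. Without MPN mouse 1, which leaves 1 sequencing run, it was 3, against 12.4% of all genes. Without MPN mouse 2 or 3 it was 3 or 2, against 10.6% and 11.2%. The median log2 fold change was 0.35 without MPN mouse 1, 0.35 without MPN mouse 2 and 0.16 without MPN mouse 3, where that of all genes was 0.18, 0.15 and 0.07. Pseudocounts of 0.1 and 5 gave 8 and 9, against 19.8% and 19.6% of all genes, a filter at 5 TPM and no filter gave 7 each, against 19.1% and 13.2%, and quantile normalization gave 7, against 18.3%. Array weights and the RPKM table gave 12 each, against 27.0% and 20.5%. In limma without the mean-variance trend 6 were called, against 18.8% of all genes. A term for sex, which sets AML mouse 3 alone against the MPN mice, left 0 called, against 5.51% of all genes, with a median of 0.08 for the replication genes and 0.10 for all genes. The count of replication genes lower in AML was 0 in each of these fits, against 4.38% to 17.4% of all genes over the 16 alternatives. Pold2 and Mcm6 passed in each of the 16 alternatives other than the term for sex, where their log2 fold changes were 0.59 and 0.50 with adjusted p of 0.114 and 0.168. Rpa2 was lost there too, and without MPN mouse 2 or 3 (adjusted p = 0.0574 and 0.0770). The Mcm3 call was lost with the term for sex, without AML mouse 2 (adjusted p = 0.0625) and without MPN mouse 1 or 3 (0.0544 and 0.0744). The calls of Rfc2, Gins2, Pold1, Rpa1, Prim1 and Gins1 held in 10, 8, 6, 6, 5 and 4 of the 16 alternatives, and each was lost without MPN mouse 3 (adjusted p of 0.0880 to 0.118) and with the term for sex (0.290 to 0.434).

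Other genes of the pathway and its surroundings were read from 6 lists, 108 genes in all, of which 23 passed upward, 6 downward and 79 did not pass, and the middle log2 fold change was 0.27. The background is again 20.1% of genes higher and 10.0% lower. Of 38 other replication factors, 4 were called higher, 1 lower and 33 not, with a median log2 fold change of 0.27. Rnaseh2a, a subunit of the nuclease that removes RNA from DNA, rose to 51.3 ± 4.71 TPM in AML, against 29.9 ± 2.87 TPM in MPN (SD, n = 3 each, 0.76 ± 0.13 SE, adjusted p = 0.00553). Tipin, of the fork protection complex, and Dnmt1, the maintenance DNA methyltransferase, rose by 0.71 and 0.65 on the log2 scale (adjusted p = 0.0275 and 0.0413). Donson, which helps assemble the helicase, had 15.9, 16.3 and 13.2 TPM in AML, against 25.2, 26.0 and 21.9 TPM in MPN (-0.65 ± 0.15 SE, adjusted p = 0.0152). It thus moved opposite to the GINS genes called above.

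Among the 6 lists, other genes of nucleotide supply had the highest median log2 fold change, 0.67, with 12 of 21 called higher, 3 lower and 6 not. Shmt1, which makes the folate used for thymidylate, had 76.6, 58.4 and 53.5 TPM in AML, against 13.9, 12.5 and 13.9 TPM in MPN (2.13 ± 0.16 SE, adjusted p = 0.000267). Impdh1, of guanine nucleotide synthesis, had 97.2, 100.3 and 79.9 TPM in AML, against 29.6, 23.6 and 24.0 TPM in MPN (1.80 ± 0.14 SE, adjusted p = 0.000301). Both separated the groups by a wide margin. Dctd, which deaminates dCMP toward thymidylate, rose by 1.32 ± 0.19 on the log2 scale (SE, adjusted p = 0.00298). Samhd1, which breaks down deoxynucleotides, fell to 85.6 ± 20.7 TPM in AML, against 320.2 ± 67.7 TPM in MPN (-1.90 ± 0.22 SE, adjusted p = 0.00126). Most markers of granulocytes and macrophages, given below, were called lower in AML too, and their part in this value was not tested. The 3 nucleotide genes among the 43, Rrm1, Rrm2 and Tyms, did not pass.

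Of 13 E2F and RB genes, 1 was called higher, 1 lower and 11 not (median 0.24). Tfdp1, the partner of E2F factors, rose to 227 ± 33.6 TPM in AML, against 147 ± 24.0 TPM in MPN (0.63 ± 0.16 SE, adjusted p = 0.0247). Rb1, which represses E2F targets, had 25.6, 24.9 and 23.6 TPM in AML, against 45.8, 40.4 and 28.7 TPM in MPN (-0.59 ± 0.18 SE, adjusted p = 0.0448). E2f3 and Tfdp2 stood at 0.67 and 0.78 and did not pass (adjusted p = 0.0505 and 0.0735). Of 11 cyclins, kinases and inhibitors of S phase, 3 were called higher, 1 lower and 7 not (median 0.14). Cdkn1a, the inhibitor p21, had 53.2, 42.1 and 41.9 TPM in AML, against 12.8, 14.5 and 17.3 TPM in MPN (1.56 ± 0.16 SE, adjusted p = 0.000862). Cdkn1c, the inhibitor p57, rose by 1.30 at a low level, and Cks1b, a kinase subunit, by 0.67 on the log2 scale (adjusted p = 0.00460 and 0.0109). Ccne1, cyclin E1, had 27.4, 20.9 and 19.4 TPM in AML, against 50.7, 50.4 and 30.0 TPM in MPN (-0.90 ± 0.23 SE, adjusted p = 0.0267). The inhibitors that passed were both higher in AML, while of the genes that promote S phase Cks1b was higher and Ccne1 lower.

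Of 9 replication checkpoint genes, 2 were called higher, 0 lower and 7 not (median 0.31). Wee1, the kinase that holds back Cdk1, rose by 0.72 ± 0.20 on the log2 scale (SE, adjusted p = 0.0340). Atrip stood at 0.51 ± 0.15 (SE, adjusted p = 0.0413), but at -0.51 in the RPKM table, where it was called lower (adjusted p = 0.0254), so neither its direction nor its call is certain. Chek1 and Rad9a, at 0.46 and -0.34, did not pass (adjusted p = 0.0984 and 0.110). Of 16 mitotic markers, 1 was called higher, 0 lower and 15 not (median 0.22). Cdc20, an activator of anaphase, rose by 0.50 ± 0.15 on the log2 scale (SE, adjusted p = 0.0435), while Aurkb, Ccnb1 and Nusap1 stood at 0.46, 0.49 and 0.22 without passing (adjusted p of 0.0687 to 0.155). Of the genes named from these 6 lists, Samhd1, Dctd, Shmt1, Impdh1, Cdkn1a and Cdkn1c passed in each of the 16 alternatives, and the calls of Rnaseh2a and Cks1b were lost with the term for sex alone. The calls of Tipin, Donson, Dnmt1, Tfdp1, Rb1, Ccne1, Atrip, Wee1 and Cdc20 were each lost with at least 1 mouse left out, MPN mouse 2 among them for all 9, at an adjusted p of 0.0508 to 0.151.

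Markers of other cells moved with the groups, and their part in the values of the replication genes was not tested. Of 14 erythroid markers, 0 were called higher, 2 lower and 12 not, and their summed level was 2187, 973 and 190.0 TPM in the AML mice, against 4079, 2219 and 1006 TPM in the MPN mice, highest in mouse 1 and lowest in mouse 3 of either group. Klf1 and Epb4.2 fell by 2.93 and 1.83 on the log2 scale (adjusted p = 0.0424 and 0.0310), and Gata1 and Epor stood at -2.35 and -2.30 without passing (adjusted p = 0.0523 and 0.0689). Of 11 stem and progenitor markers tested, 9 were called higher and 0 lower, with Cd34, Meis1, Mecom and Hoxa9 at 2.73, 2.44, 2.93 and 2.60. The remaining 2, Kit, the selection marker, and Mllt3, stood at -0.31 and -0.06 without passing. The summed level of the list was 1387, 1200.3 and 1259.6 TPM in AML, against 631, 618 and 649.9 TPM in MPN. Of 12 granulocyte markers, 1 was higher (Ctsg, 1.90) and 7 lower, among them S100a8, Mmp8 and Mmp9 at -1.61, -0.98 and -1.39. The other 4, Mpo, Prtn3, Elane and Cxcr2, stood at 0.60, 0.39, 0.13 and 0.11 without passing. The granulocyte list summed to 10374, 30599 and 19064 TPM in AML, against 52475, 33456 and 42726 TPM in MPN. Without 1 of the mice the calls of Klf1, Epb4.2, S100a8 and, below, Itgax could be lost (adjusted p of 0.0596 to 0.114).

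Of 10 macrophage markers, 9 were called lower and 0 higher, with sums of 81.1 to 191 TPM in AML and 404 to 533 TPM in MPN. C1qa, C1qb, C1qc and Mrc1 stood at -4.23, -4.23, -4.05 and -3.13, and the 3 C1q genes were listed at 0 in AML mouse 3. Of 10 dendritic cell markers, 4 were called lower, namely Siglech, Cd209a, Itgax and Spib at -2.14, -6.26, -2.35 and -5.09. The dendritic cell list summed to 313 to 1704 TPM in AML and 1858 to 2353 TPM in MPN. Irf8, which was not called, made up most of each AML sum, at 202, 652 and 1101 TPM in AML mice 1 to 3. Irf8 had 870, 975 and 700 TPM in MPN mice 1 to 3. Of 6 B cell markers tested, 5 were called lower, among them Cd79a, Ms4a1 and Cd22 at -3.45, -3.22 and -3.91. Their list summed to 27.4 to 37.0 TPM in AML and 80.8 to 108 TPM in MPN. Most of the AML sum came from the tested marker that was not called. All 10 T and NK cell markers passed, 8 of them lower and 2 higher. Cd4, Cd8a and Klrd1 stood at -3.92, -4.37 and -5.19, and Thy1 was higher at 4.48. The sums were 102 to 245 TPM in AML and 188 to 305 TPM in MPN. Thy1 alone made up most of each AML sum, at 217, 124 and 80.4 TPM in AML mice 1 to 3. It had 4.49, 4.52 and 5.58 TPM in MPN mice 1 to 3. Of 8 mast cell and megakaryocyte markers tested, 5 were called higher, among them Cpa3, Mcpt8, Itga2b and Gp9 at 2.44, 1.98, 2.26 and 1.34, and 0 lower, with sums of 156 to 260 TPM in AML and 49.7 to 97.4 TPM in MPN.

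On GRCm38 in GENCODE M21, the 4 genes with the largest fold changes lie at chr11:5872180-5878292 (minus strand) for Pold2 (ENSMUSG00000020471), chr1:128331590-128359664 (minus strand) for Mcm6 (ENSMUSG00000026355), chr4:132768332-132778752 (plus strand) for Rpa2 (ENSMUSG00000028884) and chr1:20802968-20820312 (minus strand) for Mcm3 (ENSMUSG00000041859), with Mcm6 and Mcm3 on the same chromosome. Cdc6 lies at chr11:98907801-98923940 (plus strand). The span of 13 members overlaps another protein-coding gene, for Cdt1 and Pole2 on the same strand. Of the called genes this holds for Gins2, which overlaps Gse1, and Rfc2, which overlaps Lat2, both on the opposite strand, and no source used here says whether strand was used in counting. Pcna and Tyms have named pseudogenes, so their levels are uncertain to that extent. In the RPKM table all 43 genes were found, and their fold changes differed from those of the TPM table by a median of 0.02 and at most 0.08 on the log2 scale.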

How the data were processed

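RNA-seq was read for 3 AML and 3 MPN mice, 1 library of c-Kit+ splenocytes each, made with a strand-specific poly-A kit and paired reads of 75 bases, per the labels' protocols. The TPM values deposited by the authors are gene-level RSEM output, per the file headers. The RPKM values deposited by the authors carry 1 added read per gene, as their low values show, and gave the relative depth, since TPM keeps none. Per the submitters' processing notes, the tools were TopHat2, RSEM and Bowtie2 and the builds mm9 and mm10, with no role or version, and no source used here ties a build to a table.

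The table of 24054 genes was fitted whole. The 12223 genes that reached 1 TPM in 3 or more of the 6 libraries were compared as log2(TPM + 1) in limma 3.58.1 (R 4.3.3), using a mean-variance trend, no covariate, two-sided tests and Benjamini-Hochberg adjustment over all of them at 0.05. A fold change on this scale understates that of low genes. Median scaling centred each library on its median log ratio to the gene means. Genes named beside the 43 are the 4 with the smallest p of each of 14 lists, and the label checks Dnmt3a, Xist, Ddx3y and Kit. The values of 1 gene that this rule names are not reported here. The members and the lists were chosen with earlier results of these data known. The mice are separate animals. Promoters come from RefSeq and were matched by symbol. Alternatives were pseudocounts of 0.1 and 5, quantile normalization, median scaling, a 5 TPM filter or none, the RPKM table, no trend, array weights (whose estimate stopped short of its convergence tolerance), a term for sex and leaving out each mouse.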

Additional observations from a re-analysis of the deposited data

How the results depend on the processing

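No paired analysis was possible because replicate numbers follow accession order and tie no AML mouse to an MPN mouse. The count of replication genes higher in AML was 10 of 43, against 20.1% of all tested genes. It was 4 under median scaling, against 15.3%, and 6 without the trend, against 18.8%. Leaving out 1 mouse at a time gave 2 to 12, against 10.6% to 18.8%. A term for sex, which sets AML mouse 3 alone against the MPN mice, gave a median log2 fold change of 0.08, against 0.10 for all genes. The count was 7 to 12 under the remaining alternatives, with 13.2% to 27.0% of all tested genes, and the count of genes lower was 0 under each. Their median log2 fold change of 0.27 was 0.16 to 0.35 when 1 mouse was left out. Of the 108 genes in the 6 related lists, 23 were higher and 6 lower, against 20.1% and 10.0% of all tested genes. Array weights gave 10 lower, where 2131 of all 12223 tested genes were lower. Leaving out 1 mouse gave 13 to 26 higher, where 1291 to 2303 of all tested genes were higher. It gave 3 to 7 lower, where 718 to 1402 of all tested genes were lower. The fits with fewer mice, the term for sex among them, draw the fold change from fewer animals, and for the others the cause was not tested. TPM gives no counting interval, and AML mouse 3 had the lowest depth of the 6.

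No called member changed sign under any of the 16 alternatives, and 30 values of members that were not called did. All values here are log2 fold changes. Under median scaling Orc4, Orc5, Mcm10, Pole2 and Rpa3 stood at -0.084, -0.086, -0.13, -0.035 and -0.028, and under quantile normalization Orc4, Orc5 and Mcm10 stood at -0.030, -0.029 and -0.065. With array weights Orc1, Orc2, Orc4, Orc5 and Mcm10 stood at -0.064, -0.021, -0.19, -0.17 and -0.16. With a term for sex Mcm5, Orc1, Orc5, Mcm10, Pole2, Lig1 and Fen1 stood at -0.029, -0.17, -0.082, -0.18, -0.16, -0.013 and -0.10. When 1 mouse was left out, the sign changed for Mcm10, Orc1, Orc4, Orc5, Pole2 and Tyms, whose ranges were Mcm10 -0.18 to 0.15, Orc1 -0.10 to 0.34, Orc4 -0.11 to 0.16, Orc5 -0.11 to 0.16, Pole2 -0.015 to 0.24 and Tyms -0.29 to 0.062. Of these, Orc1, Orc4, Orc5, Mcm10 and Pole2 were below 0 without MPN mouse 3. In the RPKM table Atrip stood at -0.51 and was called lower (adjusted p = 0.0254).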

Other observations

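The next genes were picked after their values were seen. Among the genes of nucleotide supply outside the 43, the purine synthesis enzymes Paics and Gart were called higher. Paics had 333, 287 and 255 TPM in AML, against 169, 161 and 146 TPM in MPN (0.86 ± 0.13 SE, adjusted p = 0.00328), and Gart had 166, 134 and 124 TPM in AML, against 86.4, 83.8 and 64.8 TPM in MPN (0.84 ± 0.16 SE, adjusted p = 0.00837). Dck, the kinase that salvages deoxycytidine, was called lower, at 46.2, 47.8 and 43.3 TPM in AML, against 69.2, 75.7 and 71.0 TPM in MPN (-0.64 ± 0.10 SE, adjusted p = 0.00453). For none of these 3 genes did a mouse of 1 group reach the other group, and AML mouse 3 lay with the other AML mice. Mki67, the proliferation antigen Ki-67, had 179.7, 129 and 123 TPM in AML and 185, 170.4 and 99.3 TPM in MPN, with MPN mouse 3 the lowest and MPN mouse 1 the highest of all 6 (adjusted p = 0.907). By level, Pcna ranked 1 among the 43 genes in every mouse. Mcm3 ranked 4 in the 3 AML mice and in MPN mouse 3, a place that Rrm2 held in MPN mice 1 and 2.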
